A study of Mus musculus with 16 samples.

Results

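The 10 genes described here encode transcription factors that mark nuclei of the mouse hypothalamus. They were taken by name, and the list was chosen with earlier results of these data known. Sim1 and Otp mark the paraventricular nucleus, and Isl1, Tbx3 and Six6 the arcuate nucleus and its neighbours. Nr5a1 and Fezf1 mark the ventromedial nucleus. Nkx2-1 marks the ventral hypothalamus that holds the arcuate and ventromedial nuclei, and Lhx6 and Lhx9 mark incertal and lateral areas. All 10 were found among the 47069 genes of the deposited count table, and all 10 were among the 16646 genes that passed the filter on low counts. The samples were hypothalamic RNA of the inbred mouse strain C57BL/6N, the hypothalamus having been cut from the whole brain. The study crossed dietary protein with dietary fat to ask how protein affects hypothalamic expression at a fixed fat level. Protein supplied 1%, 2.5%, 5% or 20% of energy, and fat supplied 60% or 20%, which gave 8 diets with 2 libraries each. Each protein level thus had 4 libraries and each fat level had 8. At a fixed fat level, less energy from protein leaves more to the rest of the diet. The same holds for fat at a fixed protein level. A difference by protein or by fat therefore cannot be told apart from that of the rest, which the labels do not describe. In the titles, the diet codes of all libraries at 1% and 2.5% protein start alike, and those of all libraries at 5% and 20% start another way, so a difference of 1% or 2.5% against 20% protein and whatever that code marks cannot be told apart. Age and sex are not stated in the labels used here, nor whether each library is a separate animal, so the p-values describe the spread among these samples alone, and that spread may be technical.

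Transcription factors of this kind give each hypothalamic nucleus its cell types during development, and many stay on in the adult neurons. Because each is made in a limited set of neurons, the RNA of such a factor in a dissected piece reflects both how many of those neurons the piece holds and how much of the RNA each neuron makes. In bulk RNA these contributions cannot be told apart: fewer cells of a type and less RNA per cell give the same count. The nuclei differ in role. The paraventricular nucleus sends out hormones and autonomic commands, the arcuate nucleus senses nutritional state, the ventromedial nucleus acts on energy use and glucose, and the lateral area holds orexin neurons.

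Library totals ran from 17731242 to 18511818 counts. A few libraries differed from the rest in RNA composition. Mitochondrial genes held 1.54%, 1.61% and 1.78% of counts in replicates 1 and 2 on 60% fat with 1% protein and replicate 1 on 20% fat with 1% protein, against 2.19% to 3.20% in the other 13 libraries. Replicate 2 of 20% fat with 1% protein and replicate 2 on 20% fat with 2.5% protein had raised cortical and hippocampal markers. Slc17a7, which cortical neurons use to load glutamate into vesicles, had 5074 and 10337 counts in them and 1267 to 2513 elsewhere. Thalamic markers were also uneven: their summed level was 1129 to 1486 CPM (counts relative to the library total, scaled by TMM factors) at 1% protein, against 910 to 1053 CPM at 20%. None of the thalamic or cortical markers was at 0 in all libraries. As a check of the tissue, 36 of 40 other hypothalamic transcription factors passed the count filter. Of 194 genes on the lists, 11 were at 0 in all 16 libraries, and the exons of all 11 are overlapped by another annotated gene. Of the 183 others, 75 also have an overlapping gene. The median share of exon bases overlapped is 100% for the 11 and 0% for the others.

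At 1% against 20% protein, 2 of the 10 factors fell and none rose. Sim1 and Isl1 passed the quasi-likelihood test of edgeR, with p-values adjusted by the Benjamini-Hochberg method over all genes tested, and 14.3% of all genes did so. In the lower direction alone the share was 2 of 10 members beside 6.01% of all genes, and in the higher direction 0 beside 8.26%. The median log2 change of the 10 members was -0.23, beside 0.003 for all genes tested. All 4 libraries at 1% protein lay below all 4 at 20% for Sim1 and Isl1, as they did for 6.35% of all genes. No member lay wholly above, as 7.4% of all genes did.

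**Figure D1:**
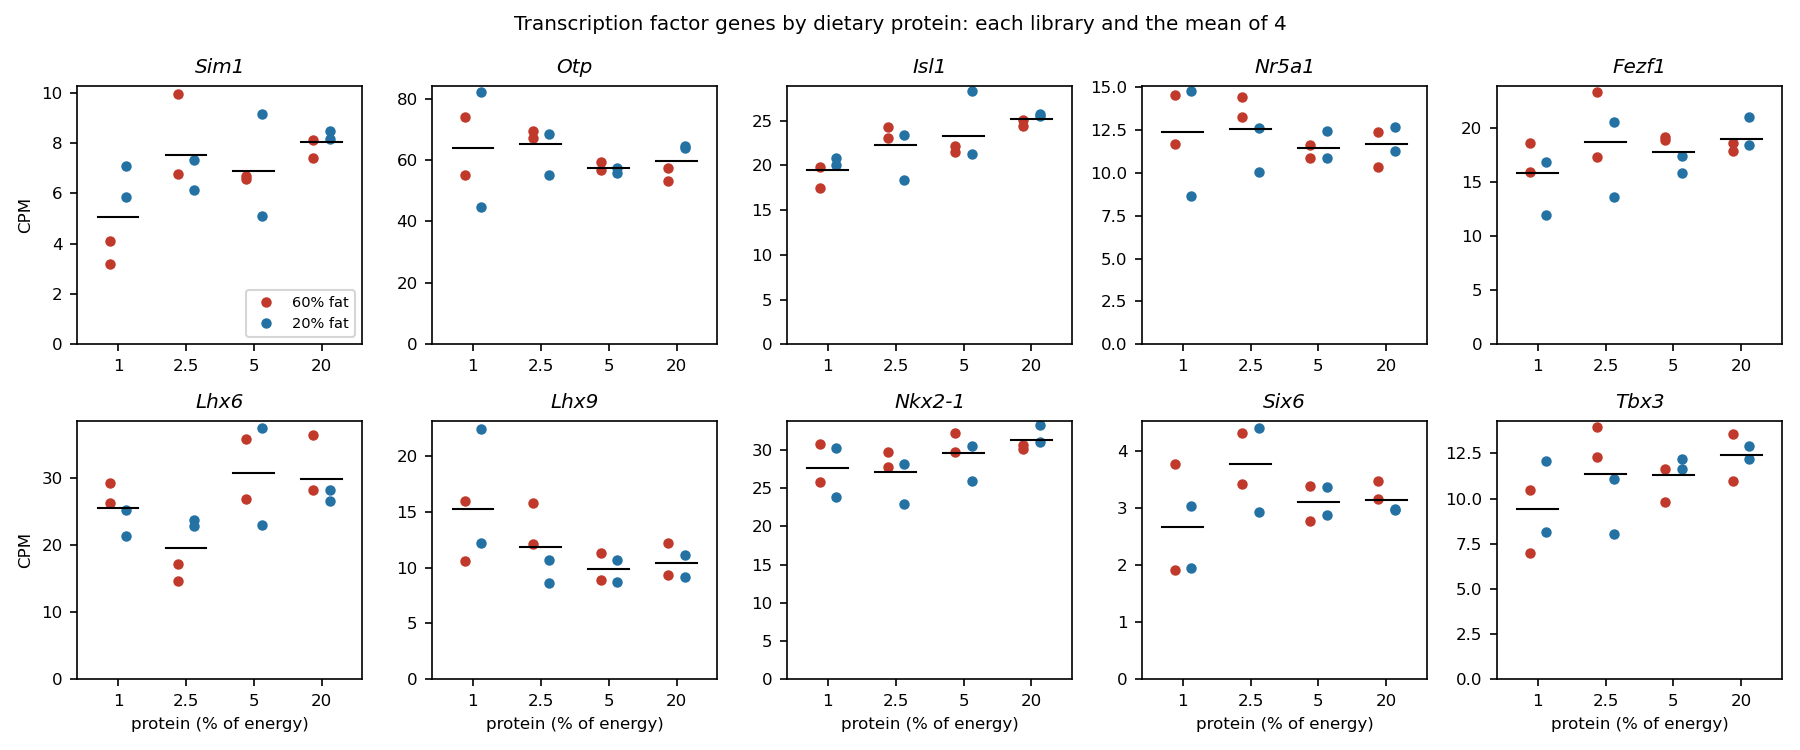
CPM of each factor (vertical axis, from 0) by dietary protein as a percentage of energy (horizontal axis). Each point is 1 library, red for 60% fat and blue for 20% fat, and each black line is the mean of 4. Sim1 and Isl1 have all 4 points at 1% protein under all 4 at 20%. The other 8 factors overlap between these levels.

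Sim1 is a basic helix-loop-helix PAS factor needed for the neurons of the paraventricular nucleus to form, and loss of a copy causes overeating and obesity in mice. Its gene lies on chromosome 10 (50894754 to 50989152, plus strand, GRCm38, GENCODE M21). At 1% protein it had 4.11 and 3.21 CPM at 60% fat and 5.86 and 7.11 CPM at 20% fat. With 20% protein the values were 8.12 and 7.39 CPM at 60% fat and 8.49 and 8.16 CPM at 20% fat. The lowest values in the series were thus the pair at 60% fat with 1% protein. The groups did not overlap. The mean was 5.07 ± 1.75 CPM for 1% protein, then 7.54 ± 1.67 for 2.5%, 6.88 ± 1.69 for 5% and 8.04 ± 0.461 for 20% (SD, n = 4 each). Ordered by level these were 1%, 5%, 2.5% and 20%, and only the step between 1% and 5% exceeded the larger SD of the neighbours. The log2 change at 1% against 20% protein was -0.67 ± 0.21 (SE, edgeR adjusted p = 0.0427), which is 1.59-fold lower.

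The call on Sim1 was close to the threshold. It was lost when any of 11 of the 16 libraries was left out, with log2 changes of -0.74 to -0.52 and adjusted p up to 0.138 in edgeR's quasi-likelihood test. These were both replicates of 60% fat with 1%, 5% and 20% protein and of 20% fat with 20% protein, and replicate 1 on 60% fat with 2.5%, 20% fat with 1% and 20% fat with 2.5% protein. Over the 16 libraries Sim1 followed the mitochondrial share (Pearson r = 0.84, Spearman rho = 0.74, and r = 0.67 without the 2 libraries farthest from the median), a description of points that share library and depth. Without the 4 libraries at 1% protein r was 0.80. For the other members r with that share over the 16 libraries ran from -0.62 for Nr5a1 to 0.53 for Isl1, with Otp at -0.52. Without the 2 libraries with raised cortical markers r was 0.92 for Sim1, 0.87 for Isl1 and -0.36 for Otp. For Isl1 it was 0.25 without the 2 libraries farthest from the median and 0.44 without those at 1% protein. With a term for the mitochondrial share in the model the Sim1 change was -0.38 (adjusted p = 0.152), and without the 2 libraries with raised cortical markers it was -0.86 (adjusted p = 0.00329), both by edgeR's quasi-likelihood test. The lowest shares, 1.54%, 1.61% and 1.78%, were all in libraries at 1% protein, though the remaining library at 1% had 3.20%. The mitochondrial term and the protein level therefore cannot be fully told apart, for Sim1 or for other members.

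Otp, a homeodomain factor that acts beside Sim1 in the same developing neurons, gave another picture. The gene lies on chromosome 13 (94875602 to 94885130, plus strand). It had 74.0 and 55.3 CPM at 60% fat with 1% protein and 82.3 and 44.6 CPM at 20% fat with 1% protein. Against these stood, at 20% protein, 53.2 and 57.4 CPM at 60% fat and 64.5 and 63.9 CPM at 20% fat. The libraries at 1% protein held both the highest and the lowest value of the series, on either side of the 20% group. The log2 change was 0.10 ± 0.14 (SE, edgeR adjusted p = 0.648). Its direction was not stable: -0.11 with the mitochondrial term, -0.08 without replicate 1 on 20% fat with 1% protein, and 0.25 (edgeR adjusted p = 0.0338) without the 2 libraries with raised cortical markers. Across protein the mean was 64.0 ± 17.2 CPM for 1% protein, then 65.1 ± 6.79 for 2.5%, 57.4 ± 1.44 for 5% and 59.7 ± 5.43 for 20% (SD, n = 4 each), and no neighbours in the order of these means differed beyond the larger SD.

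The RefSeq promoters of Sim1 and Isl1, the members that fell, are shown beside that of Otp, which shares a nucleus with Sim1 and did not pass. Each is the 250 bases before the RefSeq start on GRCm38.p6, 5′ to 3′ on the gene's strand, with E-box letters (CANNTG, which basic helix-loop-helix factors can bind) in capitals. They are Sim1 at chr10:50895401-50895650 (plus strand), Isl1 at chr13:116309689-116309938 (minus strand) and Otp at chr13:94875386-94875635 (plus strand). The RefSeq starts differ from the GENCODE M21 starts: the Sim1 window lies inside the gene span given above, and the end of the Otp window reaches into its span.
Sim1: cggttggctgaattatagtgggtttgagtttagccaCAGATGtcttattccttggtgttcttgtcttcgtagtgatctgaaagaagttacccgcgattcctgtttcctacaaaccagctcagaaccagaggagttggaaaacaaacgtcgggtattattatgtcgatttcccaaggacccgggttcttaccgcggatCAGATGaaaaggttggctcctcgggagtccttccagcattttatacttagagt
Isl1: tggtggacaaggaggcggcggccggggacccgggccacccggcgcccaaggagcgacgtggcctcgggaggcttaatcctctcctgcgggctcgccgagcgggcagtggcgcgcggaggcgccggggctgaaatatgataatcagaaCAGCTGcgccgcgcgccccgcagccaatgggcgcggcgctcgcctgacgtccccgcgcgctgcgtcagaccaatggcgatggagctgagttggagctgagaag
Otp: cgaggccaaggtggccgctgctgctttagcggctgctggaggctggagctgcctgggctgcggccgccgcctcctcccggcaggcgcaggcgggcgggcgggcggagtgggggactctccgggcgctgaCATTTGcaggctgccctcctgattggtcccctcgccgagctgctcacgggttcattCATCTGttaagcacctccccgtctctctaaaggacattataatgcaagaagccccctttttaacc
CANNTG, which reads the same on both strands, occurred at 2 places in the Sim1 window, 1 in the Isl1 window and 2 in the Otp window, and in 66.2% of the 32851 promoters searched. The homeodomain core TAATTA, also the same on both strands, was in none of these windows and in 4.8% of all promoters. Base composition differed more: G and C made up 45.6% of the Sim1 window, 71.2% of the Isl1 window and 65.2% of the Otp window, against a median of 52.4% over all promoters. RefSeq promoters were matched for 8 of the 10 members.

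Isl1 is a LIM homeodomain factor of arcuate neurons, including those that make Pomc. It lies on chromosome 13 (116298281 to 116309689, minus strand). At 1% protein it had 19.9 and 17.4 CPM at 60% fat and 20.8 and 20.02 CPM at 20% fat, and at 20% protein 24.5 and 25.1 CPM at 60% fat and 25.8 and 25.5 CPM at 20% fat. The groups were tight and did not overlap. The log2 change was -0.37 ± 0.10 (SE, edgeR adjusted p = 0.0238), which is 1.29-fold lower. The means followed the order of dietary protein: 19.5 ± 1.46 CPM for 1% protein, then 22.3 ± 2.69 for 2.5%, 23.3 ± 3.36 for 5% and 25.2 ± 0.572 for 20% (SD, n = 4 each). Only the step between 1% and 2.5% exceeded the larger SD. The call was lost in edgeR's quasi-likelihood test without replicate 2 on 60% fat with 1% protein (log2 -0.33, adjusted p = 0.0793), without replicate 1 (-0.38, 0.0521) or 2 (-0.37, 0.0531) on 60% fat with 20% protein, and without replicate 2 on 20% fat with 20% protein (-0.38, 0.0589). With the mitochondrial term it was -0.30 (adjusted p = 0.0839).

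Tbx3, a T-box factor that keeps arcuate peptide neurons in their mature state, had 10.5 and 6.98 CPM at 60% fat with 1% protein and 12.1 and 8.14 CPM at 20% fat with 1% protein, against 20% protein values of 11.0 and 13.6 CPM at 60% fat and 12.9 and 12.2 CPM at 20% fat. The means were 11.3 ± 2.51 CPM at 2.5% and 11.3 ± 1.06 at 5% (SD, n = 4 each). Of the 4 libraries at 1%, 3 lay below the lowest at 20%. The log2 change of -0.40 ± 0.17 (SE) was of the size seen for Isl1 but with a wider error, and did not pass (edgeR adjusted p = 0.115). Six6, a homeobox factor of the eye field and the suprachiasmatic area, was the least counted member, with 34 to 82 counts a library. It ran from 1.91 to 3.77 CPM at 1% protein, 2.94 to 4.41 at 2.5%, 2.78 to 3.39 at 5% and 2.97 to 3.48 at 20%, with a log2 change of -0.24 ± 0.20 (edgeR adjusted p = 0.419). Its coefficient of variation between libraries of a diet was 22.8%, of which counting error alone gives 13.1%. Six6 counts are uncertain for another reason: 18.4% of its exon bases on chromosome 12 (72939892 to 72944899) are overlapped by a coding gene on the other strand, and the sources used here do not give the strand setting of the counting.

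Nr5a1, the nuclear receptor also called steroidogenic factor, defines the ventromedial nucleus. It had 14.5 and 11.7 CPM at 60% fat with 1% protein and 14.8 and 8.63 CPM at 20% fat with 1% protein. The 20% protein libraries had 10.3 and 12.4 CPM at 60% fat and 12.7 and 11.3 CPM at 20% fat. As for Otp, the libraries at 1% protein held the extremes and enclosed the 20% group. The log2 change was 0.08 ± 0.14 (SE, edgeR adjusted p = 0.716), and it was -0.14 with the mitochondrial term and -0.05 without replicate 1 on 20% fat with 1% protein. At 2.5% and 5% protein Nr5a1 averaged 12.6 ± 1.83 and 11.5 ± 0.740 CPM (SD, n = 4 each). Fezf1, a zinc finger factor of the same nucleus, ran from 11.9 to 18.6 CPM at 1% protein, 13.6 to 23.3 at 2.5%, 15.8 to 19.1 at 5% and 17.8 to 20.97 at 20%. Of the 4 libraries at 1%, 3 lay below the lowest at 20%, and the log2 change of -0.27 ± 0.14 did not pass (edgeR adjusted p = 0.19). The log2 ratio of Nr5a1 to Fezf1, a comparison chosen after the values were seen, was -0.36 ± 0.12 at 1% protein and -0.70 ± 0.09 at 20% (SD, n = 4 each). The groups did not overlap, and the exact two-sided permutation p of 0.0286, the smallest that 4 against 4 can give, was 0.0857 when adjusted over 3 such ratios.

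Nkx2-1, the homeodomain factor that patterns the ventral hypothalamus, had the lowest coefficient of variation of the members. It had 30.8 and 25.8 CPM at 60% fat with 1% protein and 30.2 and 23.9 CPM at 20% fat with 1% protein, and the 20% protein libraries had 30.2 and 30.7 CPM at 60% fat and 33.3 and 31.05 CPM at 20% fat. The log2 change was -0.18 ± 0.09 (SE, edgeR adjusted p = 0.192). At 2.5% and 5% protein it averaged 27.2 ± 2.96 and 29.6 ± 2.68 CPM (SD, n = 4 each). Its coefficient of variation between libraries of a diet was 9.85%, against up to 27.8% for Lhx9. Counting error alone gives 4.34% for Nkx2-1 and 6.79% for Lhx9, and what made up the rest of the spread was not tested. An antisense gene overlaps 21.1% of the Nkx2-1 exon bases on chromosome 12 (56531958 to 56536908), so its counts are uncertain to that extent. An antisense gene also overlaps 10.5% for Tbx3 and 4.4% for Nr5a1, and a small RNA overlaps 2.2% for Lhx6. The other 5 members have no overlapping gene.

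Lhx9, a LIM homeodomain factor that is enriched in orexin neurons, was the member furthest above its 20% level. It had 10.6 and 15.9 CPM at 60% fat with 1% protein and 12.2 and 22.5 CPM at 20% fat with 1% protein. At 20% protein it had 9.30 and 12.2 CPM at 60% fat and 11.1 and 9.12 CPM at 20% fat. The highest value by far was replicate 2 on 20% fat with 1% protein, a library with raised cortical markers, and the groups overlapped. By protein level the means were 15.3 ± 5.29 CPM for 1% protein, then 11.8 ± 3.02 for 2.5%, 9.89 ± 1.26 for 5% and 10.4 ± 1.47 for 20% (SD, n = 4 each), and no neighbours differed beyond the larger SD. The log2 change was 0.56 ± 0.21 (SE, edgeR adjusted p = 0.0794). It was 0.26 (adjusted p = 0.233) without that library, and it passed in edgeR's test without replicate 1 on 60% fat with 1% protein (0.72, adjusted p = 0.039) and with the mitochondrial term (0.77, adjusted p = 0.0132). Over the 16 libraries its r with the thalamic marker Prkcd was 0.63 (rho = 0.63, and 0.64 without the 2 farthest libraries), and 0.25 after the diet means were taken out. Prkcd, a protein kinase C of thalamic relay neurons, rose by log2 1.06 ± 0.26 at 1% protein (edgeR adjusted p = 0.015). The part of thalamic tissue in the Lhx9 values was not tested.

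Lhx6, a LIM homeodomain factor of incertal and tuberal GABA neurons and of neurons born in the pallidum, was lowest at another level of protein. It had 17.2 and 14.7 CPM at 60% fat with 2.5% protein, the lowest pair of the series, and 22.9 and 23.8 CPM at 20% fat with 2.5% protein. At 20% protein it had 28.3 and 36.5 CPM at 60% fat and 28.2 and 26.7 CPM at 20% fat. All 4 libraries at 2.5% thus lay below all 4 at 20%, as they did for 2.28% of all genes tested. It ran from 21.5 to 29.3 CPM at 1% protein and from 23.0 to 37.5 at 5%. The log2 change at 2.5% against 20% was -0.61 ± 0.17 (SE). It did not pass edgeR's quasi-likelihood test (adjusted p = 0.48), in a comparison in which 0.00601% of genes passed. At 1% against 20% protein Lhx6 changed by -0.23 ± 0.17 (edgeR adjusted p = 0.369). The summed striatal and pallidal markers were also lowest at 2.5%, at 231.4 to 254 CPM, against 270.1 to 380.4 CPM at 20% protein, and no marker of that list was at 0 in all libraries. Across libraries Lhx6 had r = 0.77 with the mean deviation of that list. Its part in the Lhx6 values was not tested.

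**Figure D2:**
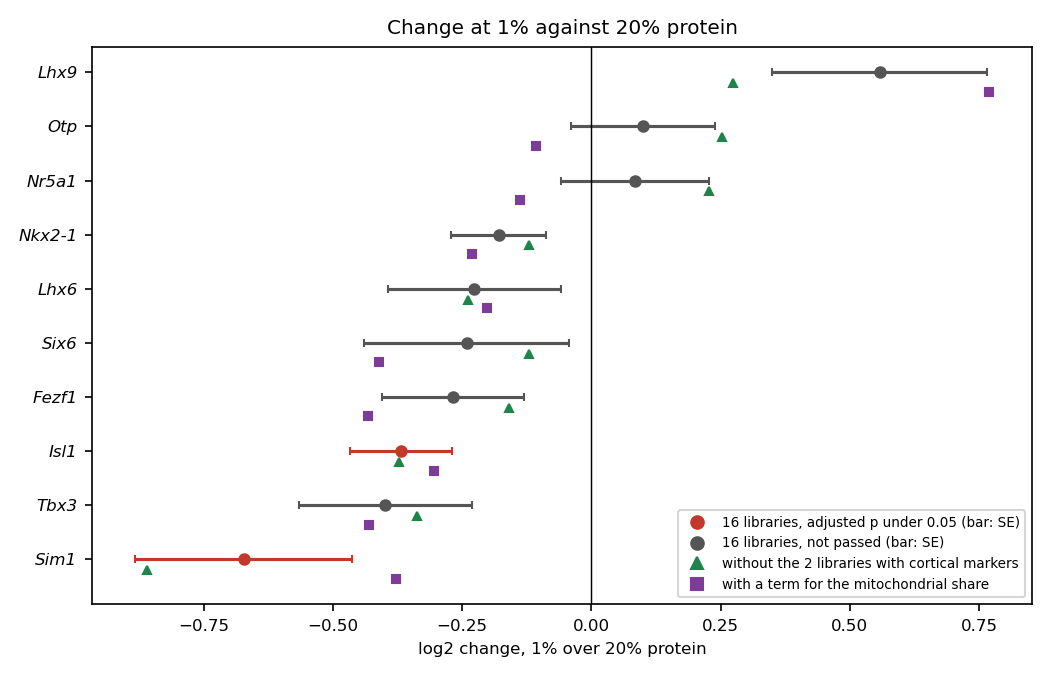
Log2 change at 1% over 20% protein (horizontal axis) for each factor. Circles are the fit to 16 libraries with SE bars, red for adjusted p under 0.05 (Sim1 and Isl1) and grey otherwise. Triangles leave out the 2 libraries with raised cortical markers and squares add a term for the mitochondrial share. Otp and Nr5a1 lie on the other side of 0 with that term, and Lhx9 lies at 0.27 without the 2 libraries and at 0.77 with the term.

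Over the 10 members, 27 of 30 steps between neighbouring protein levels, ordered by mean, were within the larger SD of the neighbours. The 3 others were the Sim1 and Isl1 steps named above and the Lhx6 step between 2.5% and 1%. The other comparisons, in the models chosen as the main ones, gave no call on any member in edgeR's quasi-likelihood test. Along the fitted protein slope, scaled to the change between 20% and 1%, 0 of 10 members passed beside 0.018% of all genes, which is 3 genes (Mt1, Mt2 and Wnt6), and 14.6% of genes had an unadjusted p under 0.05. Isl1 had the smallest adjusted p of the members (slope of log2 -0.27 ± 0.09 SE, adjusted p = 0.253, edgeR). With protein on the log2 scale instead, Isl1 was the 1 member called, at -0.35 (edgeR adjusted p = 0.0308). The members' slopes ran from -0.39 for Sim1 to 0.36 for Lhx9, and with a term for the diet code the Lhx9 slope turned to -0.04 and that of Lhx6 to 0.10, against -0.32 for Lhx6 without the term. Their median was -0.17, beside 0.004 for all genes. At 5% against 20% protein 0 of 10 members passed, beside 0.03% of genes (Mt1, Mt2, Ednrb, Angptl4 and Rnf181), and member changes lay between -0.22 for Sim1 and 0.04 for Lhx6. The called genes were named here because they were so few, after their values were seen.

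Fat gave no call on any factor. At 60% against 20% fat 0 of 10 members passed edgeR's quasi-likelihood test, beside 0.00601% of genes, and their log2 changes lay between -0.15 ± 0.15 (SE) for Sim1 and 0.15 ± 0.10 for Fezf1. Sim1 had a lowest, median and highest value of 3.21, 6.72 and 9.94 CPM at 60% fat and 5.10, 7.21 and 9.17 CPM at 20% fat. Fezf1 had 15.9, 18.6 and 23.3 CPM at 60% fat and 11.9, 17.1 and 20.97 CPM at 20% fat. Both overlapped over most of their range. A difference between fat levels in the protein effect was tested directly, and 0 genes of the whole table passed, with 1305 (7.84%) at an unadjusted p under 0.05. Sim1 had the largest such difference among the members: its change at 1% against 20% protein was -1.08 ± 0.26 at 60% fat and -0.36 ± 0.24 at 20% fat (2 libraries a group), a difference of -0.72 ± 0.35 (SE, edgeR adjusted p = 0.623). The effects at the 2 fat levels are therefore not shown to differ.

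**Figure D3:**
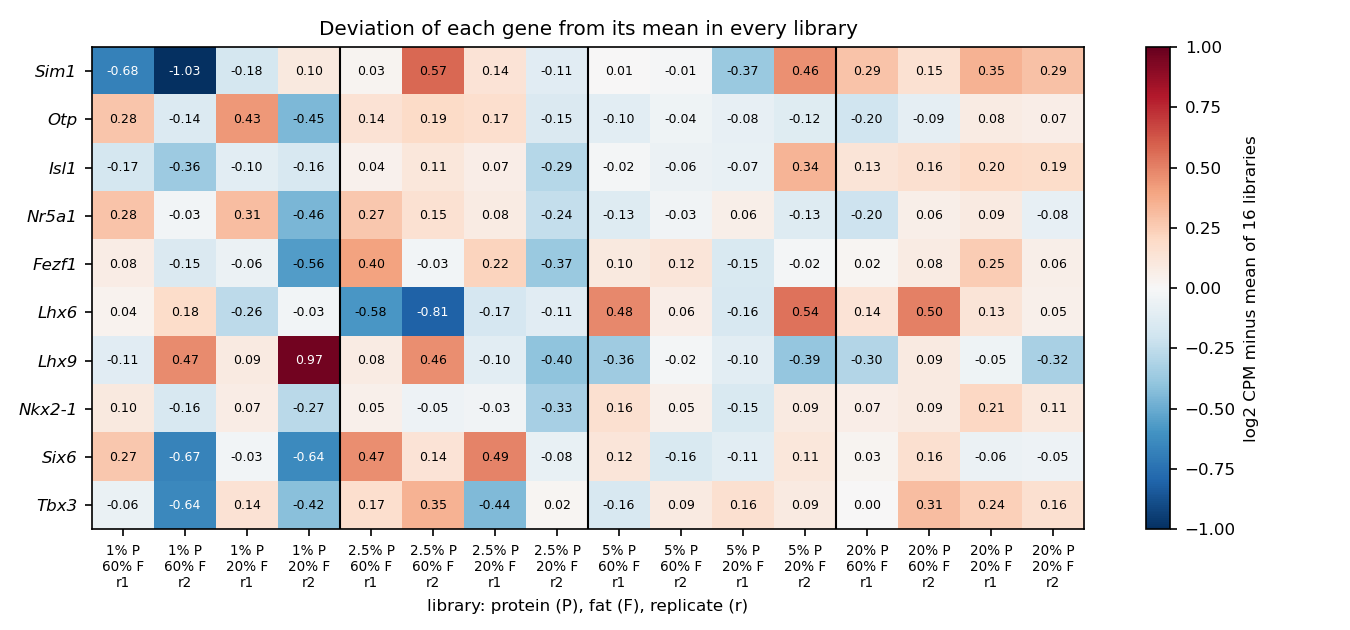
Log2 CPM of each factor (rows) in each library (columns, by protein, fat and replicate) minus its mean over 16 libraries. Red is above and blue below the mean, and the number in each cell is the deviation. Replicate 2 of 20% fat with 2.5% protein has 9 of 10 factors below their mean. Replicate 1 on 60% fat with 2.5% protein and replicate 2 on 60% fat with 20% protein each have 9 of 10 above.

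The members can also be read library by library. In replicate 2 on 20% fat with 2.5% protein 9 of 10 factors were below their mean over all libraries, with a mean deviation of log2 -0.21, and Fezf1 and Nkx2-1 were at -0.37 and -0.33. That library had the highest Slc17a7 count. In replicate 2 on 20% fat with 1% protein 8 of 10 were below, with a mean of -0.19, while Lhx9 was at 0.97. In replicate 2 on 60% fat with 1% protein 8 of 10 were below, with a mean of -0.25, led by Sim1 at -1.03. Of its 2 members above the mean, Lhx9 was at 0.47 and Lhx6 at 0.18. Replicate 1 on 20% fat with 5% protein also had 8 of 10 below. Its mean deviation was smaller, at -0.10, and its Slc17a7 count was 2174, so low libraries were not confined to 1% protein or raised cortical markers. The gap between the 2 libraries of a diet was largest in log2 terms for Six6 at 60% fat with 1% protein (0.94) and for Otp and Lhx9 at 20% fat with 1% protein (0.88 each). By contrast the median gap over the 8 diets was 0.06 for Isl1 and 0.09 for Otp.

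Factors of the same nucleus or of neighbouring areas did not all vary together. Over the 16 libraries 9 pairs were tested with Pearson's r and a permutation test of 100000 resamples, two-sided, adjusted over the 9 by Benjamini-Hochberg. Pairs with Nkx2-1 joined a factor of a nucleus to that of the wider region that holds it. Pairs with Six6 took in neighbours of the arcuate nucleus, and Lhx6 with Lhx9 joined different areas. Fezf1 and Nkx2-1 had r = 0.79 (permutation p = 0.00034, adjusted p = 0.00306, rho = 0.61 with permutation p = 0.013). Isl1 and Nkx2-1 had r = 0.66 (permutation p = 0.00568, adjusted p = 0.02, rho = 0.59 with p = 0.019). Nr5a1 and Fezf1 had r = 0.65 (permutation p = 0.00667, adjusted p = 0.02, rho = 0.39 with p = 0.136). These 3 pairs passed, and none of the 9 did as rank correlations, without the 2 libraries farthest from the median, without the 2 with raised cortical markers, after the diet means were taken out, or within a fat level. Within a fat level the permutation test was exact, over all orders of the 8 libraries. With diet means taken out it was an exact test that flipped the signs of the 8 differences between replicates. Its smallest possible p was too large for 1 pair alone to pass after adjustment over the 9. Without the 2 farthest libraries r was 0.53 for Fezf1 and Nkx2-1, 0.65 for Isl1 and Nkx2-1 and 0.57 for Nr5a1 and Fezf1. Without the 2 cortical libraries these were 0.53, 0.52 and 0.24 in the same order. At 60% fat (8 libraries) r was 0.53, 0.50 and 0.44, at 20% fat (8 libraries) it was 0.84, 0.83 and 0.71, and with diet means taken out (8 diets) it was 0.87, 0.77 and 0.78, so the last 2 settings lost the calls with r at or above its value over 16 libraries. Sim1 and Otp, the paraventricular pair, had r = -0.05 (permutation p = 0.862, rho = -0.01), and their log2 ratio was -3.69 ± 0.71 at 1% protein and -2.89 ± 0.12 at 20% (SD, n = 4 each). The groups overlapped, with -4.17 to -2.65 at 1% and -2.97 to -2.71 at 20%, and the ratio did not pass (exact two-sided permutation p = 0.143, adjusted over 3 ratios 0.214).

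Some pairs from different nuclei followed each other more closely, and are given as a description, since they were picked for their r. Otp and Nr5a1 had r = 0.90 (rho = 0.91), and r = 0.83 without the 2 farthest libraries. It was 0.94 between libraries of the same diet, after the diet means were taken out. With the mitochondrial share Otp had r = -0.52 and Nr5a1 r = -0.62. With the mean deviation of the neuronal markers these were -0.69 and -0.72, and with that of the cortical and hippocampal markers -0.55 and -0.63. The part of any of these in the likeness of Otp and Nr5a1 was not tested. Sim1 and Isl1 had r = 0.82 (rho = 0.88), and 0.75 without the 2 farthest libraries. Oxt, the oxytocin gene of the paraventricular and supraoptic nuclei, had r = 0.84 with Otp and 0.88 with Nr5a1, but 0.06 with Sim1.

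**Figure D4:**
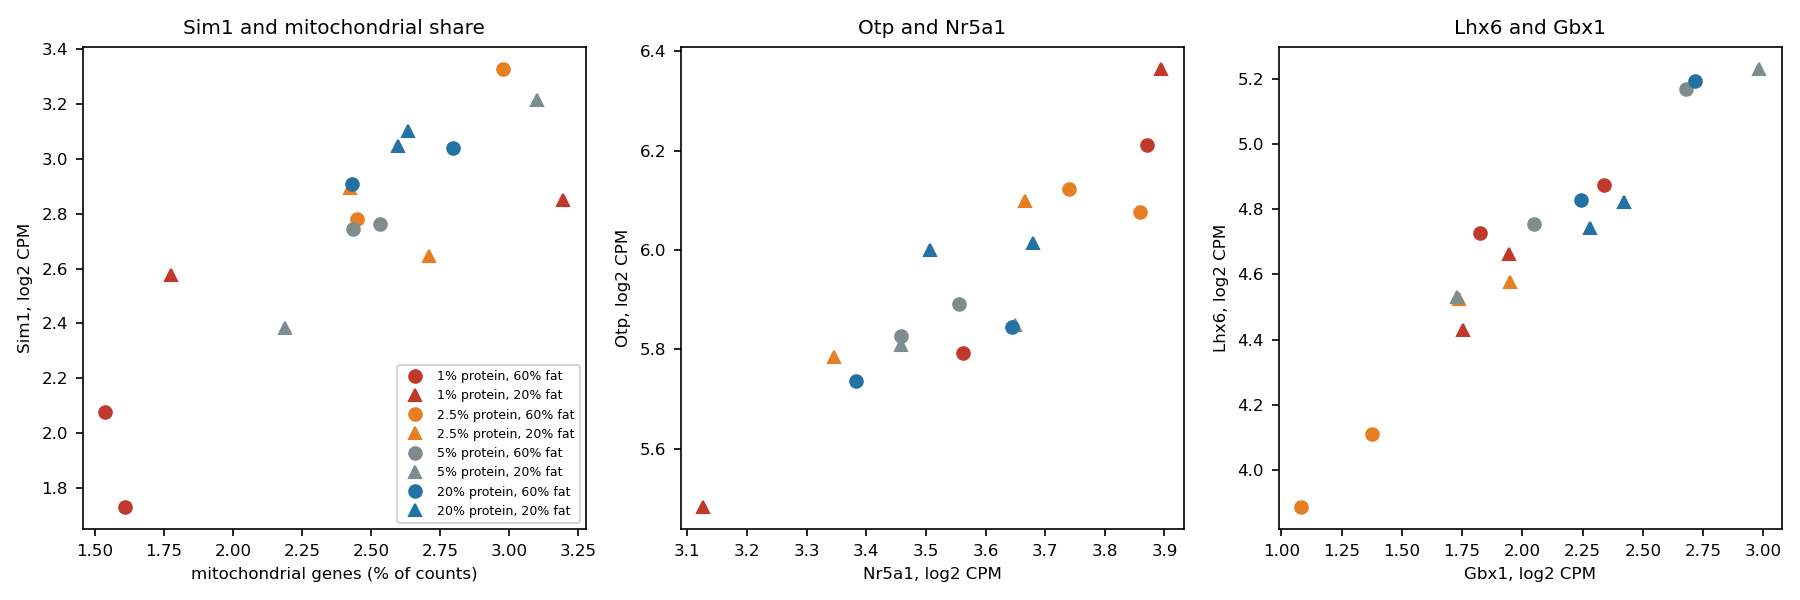
Each point is 1 library, coloured by protein, circles for 60% fat and triangles for 20% fat. Left, Sim1 in log2 CPM against the share of mitochondrial counts (%), r = 0.84. Middle, Otp against Nr5a1, both in log2 CPM, r = 0.90. Right, Lhx6 against Gbx1, both in log2 CPM, r = 0.97. The lowest Sim1 points are the libraries at 1% protein with 60% fat, and the lowest Lhx6 points those at 2.5% protein with 60% fat.

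The genes most like each factor over the 16 libraries were ranked by Pearson r of log2 CPM among 13194 genes with a mean of at least 1 CPM. They share library and depth, so r describes these libraries only. The closest to Lhx6 were Gbx1 (0.97), Lhx8 (0.94) and Mpped2 (0.89). For Sim1 they were Cacybp (0.96), Nap1l3 (0.94) and Vldlr (0.94), and 697 genes (5.28% of those ranked) exceeded 0.8, against 2 to 40 for each other member. For Otp they were Nr5a1 (0.90), Trabd (0.89) and Foxb2 (0.87), and for Nr5a1 they were Resp18 (0.91), Otp (0.90) and Oxt (0.88). For Isl1 they were Gprasp1 (0.90), Lyn (0.88) and Pde1c (0.87). Fezf1 was closest to Chil1 (0.87), Gal (0.85) and Gstm6 (0.85), and Nkx2-1 to Rimklb (0.82), Loxl1 (0.82) and Gal (0.81). Without the 2 libraries with raised cortical markers the r of Gal was 0.55 with Fezf1 and 0.51 with Nkx2-1. Six6 was closest to Tmed10 (0.86), Bmp8b (0.85) and Cand2 (0.79), Tbx3 to Smim24 (0.85), Crabp2 (0.82) and Avp (0.80), and Lhx9 to Pdp1 (0.85), Mrps22 (0.83) and Ddx20 (0.81).

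Some peptide and output genes of the same nuclei were called at 1% against 20% protein by edgeR's quasi-likelihood test, in which 8.26% of all genes rose and 6.01% fell. The counts of the lists are to be read beside those shares, and several lie near or below them. Of 11 arcuate output genes tested, 2 rose and 2 fell. Npy, a feeding peptide, averaged 80.3 ± 29.6 CPM at 1% and 17.2 ± 3.57 at 20%, a log2 change of 2.17. Pomc, the melanocortin precursor, averaged 12.7 ± 1.2 CPM at 1% and 47.5 ± 7.56 CPM at 20%, a log2 change of -1.91. Agrp rose (0.59) and Cartpt fell (-0.44) as well, while Kiss1 did not pass the count filter. Of 8 paraventricular and supraoptic genes 1 rose and 2 fell. Crh, the stress-axis releasing hormone, rose (0.33), Avp, or vasopressin, fell (-0.58), and Brs3, a bombesin receptor, fell (-0.47). Oxt and Trh did not pass (0.02 and 0.17).

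Of 10 ventromedial output genes 1 rose (Nptx2, 0.45) and 1 fell (Gpr149, -0.33), and Adcyap1 did not pass (-0.20). Of 12 dorsomedial, lateral and incertal genes 1 rose and 3 fell, among them Qrfp (0.78), Gpr50 (-0.60) and Nts (-0.37). Neither Hcrt (0.34), which encodes orexin, nor Pmch (0.001), which encodes melanin-concentrating hormone, passed. No suprachiasmatic gene of 8 passed, with Vip at -0.36. Of 36 other hypothalamic transcription factors tested 1 fell (Nkx2-4, -0.49) and none rose, and their median was 0.005. Of 8 mammillary markers 1 fell (Nos1, -0.28).

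Markers of other tissue and cell types were called in the same comparison, some lists above and some at or below the shares of all genes. Of 10 thalamic markers 5 rose, with a median of 0.62, led by Prkcd (1.06) and Gbx2 (0.86). Of 8 endothelial markers 7 fell, led by Cdh5 (-0.78) and Tek (-0.50), and their summed level was 159.5 to 177.6 CPM at 1% protein, against 200.9 to 236.8 CPM at 20%. Of 7 astrocyte markers 3 rose and 1 fell (Agt 0.58, Aldh1l1 0.35, Aqp4 -0.86), and of 8 neuronal markers 1 fell (Map2, -0.34). None of the 12 cortical and hippocampal, 8 striatal and pallidal, 7 choroid plexus, 4 pituitary, 8 tanycyte and ependymal or 7 microglial markers passed, and Slc17a7 was at 0.63. Of the genes named here from these lists, Npy, Pomc, Agrp, Gbx2, Agt, Aldh1l1, Aqp4 and Cdh5 kept their call whichever library was left out, and the others that passed lost it without 1 to 12 of the 16 libraries, with adjusted p up to 0.167.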

How the data were processed

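Gene expression was measured by RNA sequencing in 16 hypothalamus libraries, 2 for each of 8 diets. The authors deposited raw counts per gene, not normalised. HISAT2 2.1.0, SAMtools 1.2, featureCounts and Subread 5.0 with build GRCm38 are named, per the submitters' processing notes, while the strand setting and annotation are not given in the sources used here. The deposited gene length equals the whole span, introns included, for 85.5% of 46488 identifiers matched to GENCODE M21, so counts can take in intron reads: the counted length of Sim1 is 93502 bases and its exons hold 8621. Exon overlaps with other genes were taken from that annotation.

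The filterByExpr function of edgeR (minimum count 10) chose the genes tested, and TMM factors scaled them. CPM are relative to the filtered library, and a prior count of 2 was added for log2 CPM. The edgeR 4.0.16 quasi-likelihood F test (R 4.3.3) was run over all genes with Benjamini-Hochberg adjustment at 0.05, on all 16 libraries. Protein was taken as 4 levels with fat for contrasts, as a number with fat for the slope (with their interaction where its p was at most 0.05, as in the series' design text), and as 8 diets for the difference between fat levels. The steps were tested on simulated counts. No 2 libraries agreed within sampling noise.

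The members and gene lists were chosen with earlier results of these data known. Named beside the 10 members were up to 2 highest and 2 lowest called genes per list (mean of at least 1 CPM), a fixed set of peptide genes with Slc17a7, and the 3 genes most correlated with each member, leaving out predicted genes. Lhx8, Gbx1, Prkcd and Oxt correlations, and the genes called along the slope, at 5% protein and by fat, were named after their values were seen. Alternatives were median-ratio scaling, DESeq2 1.42.0, no count filter, the replicate number as a block, 1 surrogate variable from sva 3.50.0, log2 of the protein level, the start of the diet code as a term in the slope model (it splits 1% and 2.5% from 5% and 20% protein), leaving out each library, and leaving out the 2 libraries with cortical markers. A mitochondrial term, removal of a gene length trend (loess span 0.5) and the ratios of members were added after seeing the data. The result of 1 marker list is not reported here.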

Additional observations from a re-analysis of the deposited data

Results flagged for a closer look

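Among 60 groups of 4 or 8 libraries checked for a library far from the others, 3 held one, and chance gives about 1 in 20, or 3. Isl1 stood at a log2 CPM of 4.831 (28.3 CPM) in replicate 2 on 20% fat with 5% protein, above the other 3 libraries at 5% protein. Lhx9 stood at 4.497 (22.5 CPM) in replicate 2 on 20% fat with 1% protein, above the other 7 libraries at 20% fat. Otp stood at 5.784 (55.0 CPM) in replicate 2 on 20% fat with 2.5% protein, below the other 3 libraries at 2.5% protein. The last 2 of these libraries had raised cortical markers.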

How the results depend on the processing

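Of 1368 recomputed values of single genes or pairs, 1155 kept their direction and side of the threshold, 146 lost a call, 13 gained one and 54 changed sign. For 1% against 20% protein, 2376 genes were called, 5889 without the 2 libraries with cortical markers, 1282 with 1 surrogate variable, 1404 with the mitochondrial term, and 939 to 5616 with single libraries left out. The count fell by over 1.5 times without either replicate on 60% fat with 1% (1135 and 978) or 20% protein (1083 and 1355), replicate 1 on 20% fat with 1% protein (939) or replicate 2 on 20% fat with 20% protein (961), and it was 5616 without replicate 2 on 20% fat with 1% protein. Sim1 passed in 11 of 24 alternatives, Isl1 in 18, Lhx9 in 4 and Otp in 1. With 1 surrogate variable Sim1 was at -0.33 (adjusted p = 0.301), Isl1 at -0.31 (0.108) and Lhx9 at 0.81 (0.0158). The slope called 3 genes, 1311 with log2 of the protein level, 82 with DESeq2, 8 without a count filter, 7 with the mitochondrial term, 1 without the cortical libraries, 0 with the diet-code term, which could be run for the slope alone, and 0 to 10 with single libraries left out. For 2.5% against 20% protein 1 gene was called, 50 without the cortical libraries, 39 with the mitochondrial term, 26 with DESeq2, 25 without a filter, 4 with the length trend removed and 0 to 17 with single libraries left out. For 5% against 20% protein 5 genes were called, and 1 to 5 with single libraries left out. For fat 1 gene was called, 0 with DESeq2, 2 with the surrogate variable, the mitochondrial term or without the cortical libraries, and 0 to 2 with single libraries left out. The difference between fat levels called 0 genes, 1 without a filter and 0 with DESeq2. Of the 9 pairs 3 passed and 0 did under each of the 6 alternatives, of which 3 had an n of 8.

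With the replicate number as a block, 2786 genes were called at 1% against 20% protein, 7 at 2.5% and 2 for fat, and no call on a member changed. Over 28 pairs of diets the deviations of same-numbered libraries had r of -0.17 to 0.339, over 0.1 in 7. These pairs of diets share libraries, so the r values do not settle whether the numbers pair the samples.

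The following values changed sign, none of them called over the 16 libraries. With the surrogate variable Otp was at -0.17, Nr5a1 -0.21, Oxt -0.20, Trh -0.11 and Pmch -0.077, the Otp and Nr5a1 slopes -0.015 and -0.032, and Sim1 by fat 0.017. With the mitochondrial term Otp was at -0.11, Nr5a1 -0.14, Oxt -0.13, Trh -0.041, Pmch -0.054 and the Nr5a1 slope -0.00037. With the diet-code term the slopes were Otp -0.076, Nr5a1 -0.035, Lhx6 0.099 and Lhx9 -0.043. Pmch was at -0.0044 with median-ratio scaling and with DESeq2, -0.0048 without a filter and -0.0047 with the block. With the length trend removed Pmch was at -0.074 and Oxt at -0.063. The Six6 slope was 0.089 without the cortical libraries. With single libraries left out Otp ran from -0.075 to 0.24, Nr5a1 from -0.053 to 0.22, Oxt from -0.11 to 0.11, Pmch from -0.096 to 0.048 and the Six6 slope from -0.083 to 0.081. With diet means removed r was -0.058 for Isl1 and Tbx3 (0.56 before) and 0.013 for Lhx6 and Lhx9. For Sim1 and Otp r was 0.0042 without the 2 farthest libraries and 0.0014 at 60% fat, and for Nr5a1 and Nkx2-1 it was -0.066 without the cortical libraries and -0.067 at 60% fat (0.46 over all). The causes were not tested. Depth limits Six6 most, with counting error at 13.1% against 2.98% for Otp.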
